A study of Mus musculus with 8 samples.

Results

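The genes described here encode the subunits of voltage-gated calcium and sodium channels. They were chosen by symbol, as every row whose name begins with Cacna, Cacnb or Cacng, or consists of Scn, a number and the letter a or b, which gave 40 of the 55536 genes in the count table. RNA was sequenced from MIN6, a β-cell line from a mouse insulinoma, labelled WT in genotype in both groups. Cells of both groups were transfected for 48 h with Lipofectamine 3000, the control group with pcDNA 3 Empty Vector and the other group with pGloMyc-Klf4, which carries the zinc-finger transcription factor Klf4. The plasmids differ in name as well as in cargo, so backbone and Klf4 cannot be told apart. Each group had 4 libraries of polyA RNA, replicates 1 and 2 in batch 1 and replicates 3 and 4 in batch 2. The design text calls them biological replicates, and the labels do not say whether they were separate cultures, so p-values measure the spread between these libraries. The share of cells that took up a plasmid was not given, so each value averages over transfected and untransfected cells, and fewer cells with a transcript cannot be told apart from less RNA per cell. The extraction text speaks of islets, but the samples are named Min6 throughout.

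A voltage-gated calcium channel is built around a pore-forming α1 subunit. Cytoplasmic β subunits and extracellular α2δ subunits carry the pore to the membrane and shape its gating, and γ subunits bind some calcium channels or, in several family members, AMPA-type glutamate receptors. A voltage-gated sodium channel has a pore-forming α subunit and small β subunits that span the membrane. In β cells, closure of ATP-sensitive potassium channels depolarises the membrane, sodium and calcium channels open during the action potential, and calcium entry, largely through L-type channels, triggers insulin release.

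Promoters are shown for 4 members that illustrate the contrast found inside subunit classes: Cacna2d3 and Scn11a, which rose, and Cacna2d1 and Scn8a, which lead their classes in level and did not pass the test. Each sequence holds the 250 bases before the RefSeq transcript start, from the RefSeq table on GRCm38.p6, 5′ to 3′ on the gene's strand, and none of these 4 windows contains an annotated exon. Capitals mark CACCC or its reverse complement GGGTG, the core of the element that Klf factors are known to bind.
Cacna2d3 (chr14:29721865-29722114, minus strand): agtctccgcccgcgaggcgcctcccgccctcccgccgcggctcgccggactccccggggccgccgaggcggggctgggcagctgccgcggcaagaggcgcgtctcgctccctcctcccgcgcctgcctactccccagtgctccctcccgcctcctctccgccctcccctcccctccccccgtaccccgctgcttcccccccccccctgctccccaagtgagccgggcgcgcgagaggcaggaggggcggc
Scn11a (chr9:119825457-119825706, minus strand): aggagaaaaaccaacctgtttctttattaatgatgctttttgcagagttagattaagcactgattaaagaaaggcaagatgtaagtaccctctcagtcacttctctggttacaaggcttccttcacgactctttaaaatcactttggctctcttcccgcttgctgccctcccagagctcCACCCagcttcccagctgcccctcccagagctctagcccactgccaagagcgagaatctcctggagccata
Cacna2d1 (chr5:15934441-15934690, plus strand): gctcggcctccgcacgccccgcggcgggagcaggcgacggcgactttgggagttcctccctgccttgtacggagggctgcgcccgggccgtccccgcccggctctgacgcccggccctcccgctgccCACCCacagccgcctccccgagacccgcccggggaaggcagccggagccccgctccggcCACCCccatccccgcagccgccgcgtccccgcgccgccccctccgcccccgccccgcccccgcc
Scn8a (chr15:100870395-100870644, plus strand): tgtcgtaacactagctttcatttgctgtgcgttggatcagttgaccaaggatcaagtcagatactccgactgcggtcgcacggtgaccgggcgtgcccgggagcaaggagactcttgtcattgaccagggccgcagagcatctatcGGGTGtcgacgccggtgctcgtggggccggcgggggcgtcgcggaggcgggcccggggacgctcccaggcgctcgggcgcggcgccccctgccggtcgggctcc

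The printed windows differ without following the calls. Cacna2d3 held 0 matches to CACCC on either strand, Scn11a held 1, Cacna2d1 held 2 and Scn8a held 1. Of the 40 members, 27 had a promoter in the table within 1000 bases of the GENCODE start, and 16 of these (59.3%) held the motif, against 55.5% of 15049 promoters of the same length. It was present in 5 of 8 promoters of members that rose, 1 of 3 of members that fell and 6 of 10 of tested members that did not pass. Unlike the printed windows, some of these lie wholly within annotated exons on either strand. Among them are Cacna1e and Cacna2d2 (higher), Cacng2 (lower) and Cacna1d (did not pass), each with 250 exonic bases. The GC box GGGCGG, counted on both strands, was in 44.4% of the members' promoters and 47.8% of all. By call, it was in 5 of 8 promoters of higher members, 1 of 3 of lower members and 4 of 10 of those that did not pass. These matches describe letters in a window and are not evidence of binding.

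Klf4 itself had 1743 to 2060 counts in the control libraries and 205171 to 308667 in the Klf4 libraries, as their labels state. Plasmid and endogenous transcripts were counted together. Its log2 fold change differed between batches, at 6.78 in batch 1 and 7.17 in batch 2 (edgeR interaction, adjusted p = 0.0057). Total counts were 45417853 to 52731176 per library. The 10 β-cell markers were all expressed, and their summed level was 25700 to 32300 CPM (counts scaled to library size with TMM factors) in control and 23900 to 32600 CPM in Klf4 libraries. Ins2 carried most of this sum, at 16800 ± 2900 CPM in control and 16500 ± 3250 CPM in Klf4 libraries (SD, n = 4). From batch 1 to batch 2 it changed by -0.46 on the log2 scale. Of the 10 markers, 1 was higher and 7 were lower (edgeR, adjusted p under 0.05), with log2 fold changes between -0.22 and 0.11. Of all tested genes, 21.1% were higher and 15.5% lower. Slc30a8, the zinc transporter of insulin granules, changed by -0.22 in each batch. Mafa, a β-cell transcription factor, changed by -0.18, and this differed between batches, at -0.06 in batch 1, where the groups overlapped, and -0.29 in batch 2 (edgeR interaction, adjusted p = 0.00817). Of other cell markers, those of striated muscle (3 of 3 higher) went from 1.56 to 3.1 CPM in sum to 9.83 to 13.3 CPM. Those of fibroblasts (2 of 2 higher) went from 1.43 to 2.51 CPM to 18.7 to 25 CPM. The muscle marker Ckm and the fibroblast marker Dcn passed the filter only through their Klf4 libraries, so both had to differ. Acta1 carried most of the muscle sum, at 1.26 ± 0.492 CPM in control and 9.28 ± 1.17 CPM in Klf4 libraries (SD, n = 4). The change of Acta1 differed between batches, at 2.38 in batch 1 and 3.54 in batch 2 (edgeR interaction, adjusted p = 0.0227). Dcn carried most of the fibroblast sum, at 0.0461 ± 0.0449 CPM in control and 17.6 ± 3.82 CPM in Klf4 libraries, and Col1a1 had 1.91 ± 0.511 and 3.98 ± 0.489 CPM (SD, n = 4). The 3 neuronal markers held 187 to 249 CPM in control and 180 to 215 CPM in Klf4 libraries, with 1 higher and 1 lower. Nefh carried most of this sum and was lower, at 203 ± 33.5 and 181 ± 18.3 CPM. Rbfox3 rose from 1.21 ± 0.257 to 2.98 ± 0.659 CPM (SD, n = 4). The 3 alpha-cell markers held 232 to 265 CPM and 200 to 247 CPM, with 1 higher and 1 lower. Gc carried most of this sum and was lower, at 175 ± 5.72 and 147 ± 3.25 CPM. Irx2 rose from 0.348 ± 0.154 to 0.94 ± 0.297 CPM (SD, n = 4), and Gcg had no call. Acinar markers held 1.36 to 3.92 and 1.28 to 2.79 CPM without a call, and no delta, PP or leukocyte marker passed the filter. Several channel genes are also known from muscle or nerve, and the part of these markers in the results was not tested.

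Of the 40 members, 33 passed the filter on low counts and were tested. By the quasi-likelihood test of edgeR, with Benjamini-Hochberg adjusted p-values across the 18266 genes tested, 16 members were higher and 4 lower in Klf4 libraries at an adjusted p under 0.05, and 13 did not pass. That is 60.6% of those tested, beside a background of 36.6% of all tested genes, made up of the 21.1% higher and 15.5% lower. The split depended on scaling: 57.7% of all calls were higher with TMM factors and 72.8% when only highly expressed genes set the scaling, where 16 members were higher and 1 lower. The median log2 fold change was 0.14 over the tested members and -0.0142 over all tested genes. Passing the filter only through its Klf4 libraries, 1 low member had to differ; without it, 15 of 32 were higher, 4 lower, and the median was 0.12. Calcium channel genes held most of the calls, with 13 higher and 4 lower of 23 tested, and sodium channel genes gave 3 higher and 0 lower of 10. The member that had to differ is 1 of these 3. The 4 Klf4 libraries lay wholly above the controls for 14 called members (13 without the member that had to differ) and wholly below for 1, Cacng2. Over all tested genes, 26.1% showed no overlap in either direction. Exonic bases are shared with another annotated gene by 7 called members, Cacna2d2, Cacnb1, Cacnb4, Cacna1a, Cacna1h, Cacng2 and Cacng8. The counts of these are uncertain to that extent. No such bases were found in 11 higher members (10 without the member that had to differ) and 2 lower ones.

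**Figure D1:**
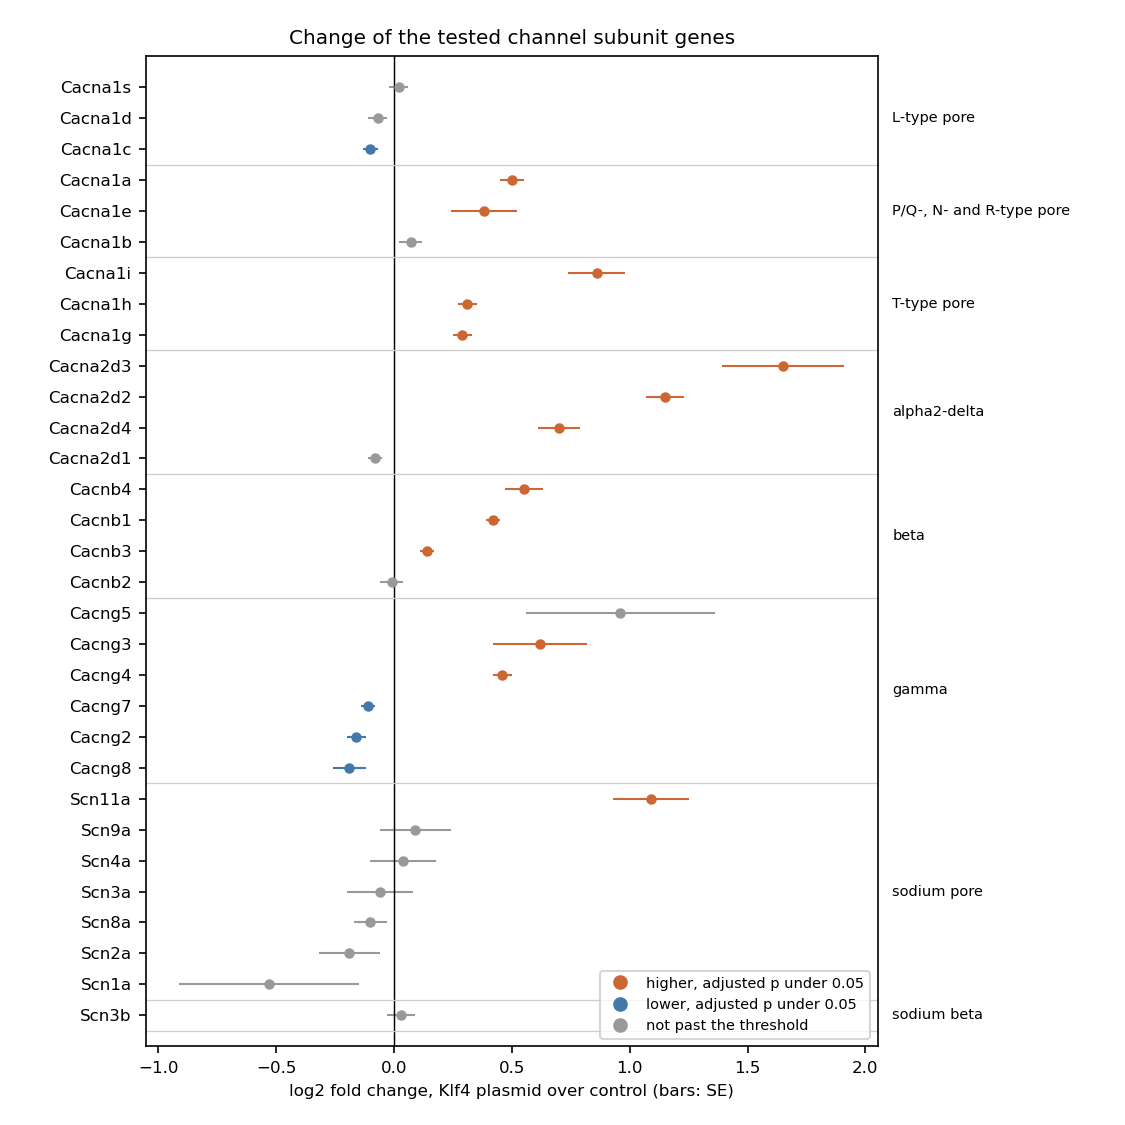
Log2 fold change (Klf4 plasmid over control, x axis) of 31 tested members, grouped by role, with bars for the standard error of the fit over 4 against 4 libraries. Increases reach 1.65 in Cacna2d3, while the 4 members called lower lie between -0.19 and -0.10.

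The levels in control libraries, compared per kb of exon because transcripts differ in length, were uneven within every class. Cacnb3, a β subunit of calcium channels, stood highest at 91.9 ± 1.12 CPM per kb (SD, n = 4), followed by Cacng7 at 39.8 ± 3.23 and Cacnb1 at 18.4 ± 1.5. Cacng4 (14.4 ± 1.86) and Cacna2d1 (14.3 ± 0.504) came next and did not differ beyond their spread. Among pore genes the T-type Cacna1h led per kb at 8.03 ± 1.49 and the L-type Cacna1c followed at 6.64 ± 0.964. Per kb, Cacna1h was above Cacna1c in each of the 4 control libraries. The length counts the exons of every annotated transcript, 21191 bases for Cacna1c and 9763 for Cacna1h. Without division by length Cacna1c was higher, at 141 ± 20.4 CPM against 78.4 ± 14.6 CPM, so this order rests on the lengths used. The highest sodium pore gene was Scn8a at 1.52 ± 0.175. Members such as Cacna2d3, Scn1a and Cacng5 were under 0.05 CPM per kb, so their changes rest on few counts.

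**Figure D2:**
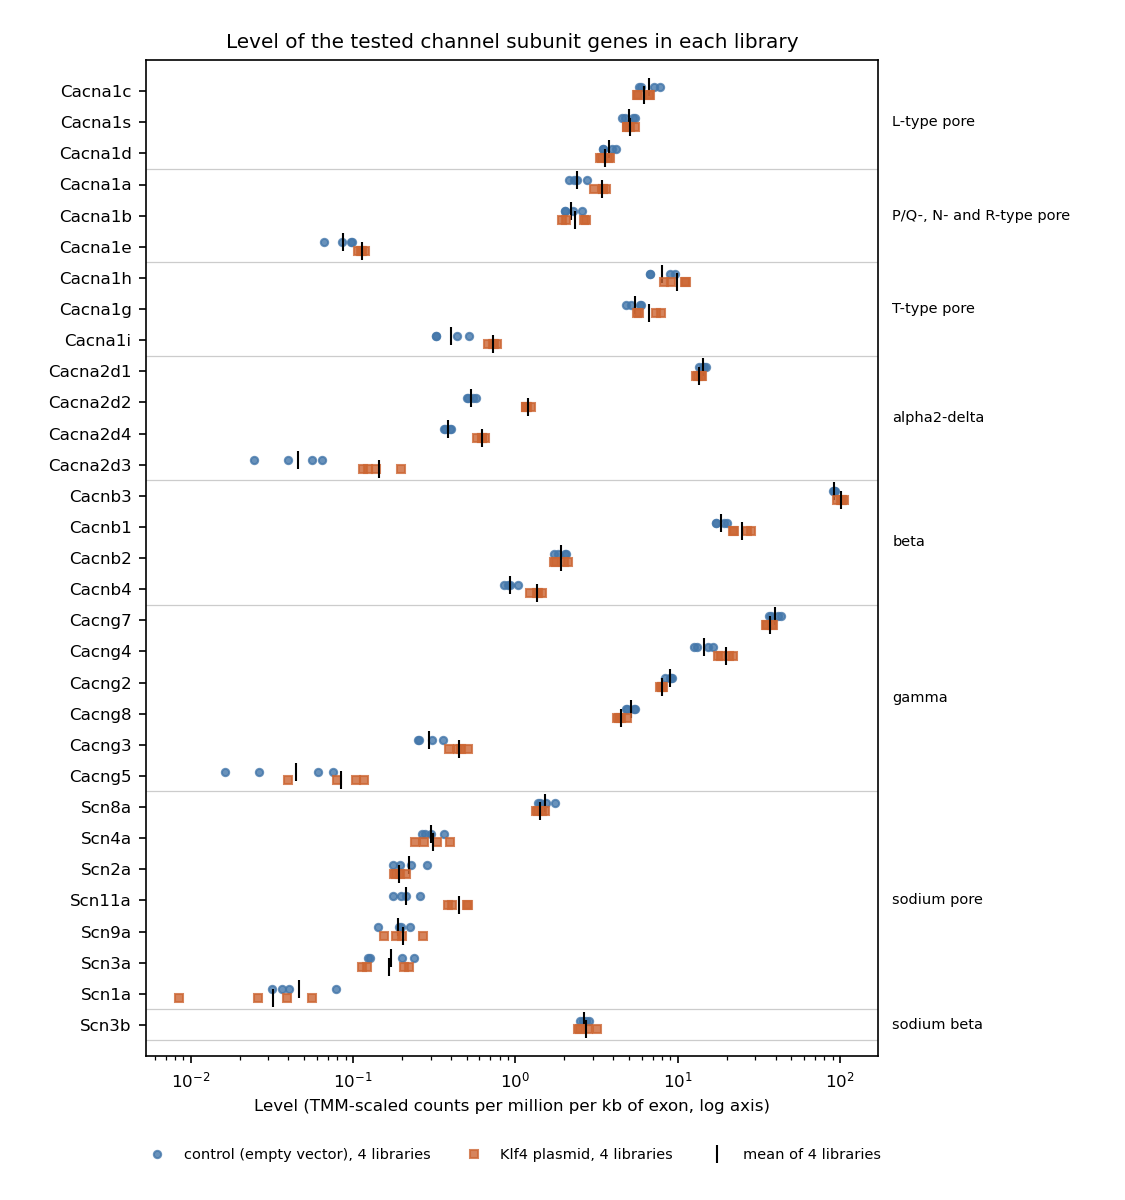
Level of 31 tested members in each library on a log axis (CPM per kb of exon), with circles for control, squares for Klf4 libraries and a bar for the mean of 4. Within the α2δ class Cacna2d1 stays at the right in both groups, while the low Cacna2d2, Cacna2d3 and Cacna2d4 are shifted upward without overlap.

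L-type pores, the main calcium entry route for secretion, barely moved. Cacna1c, the highest of them per kb, had 152, 164, 125 and 122 CPM in control replicates 1 to 4 and 140, 144, 120 and 119 CPM in the Klf4 libraries. The groups overlapped, since batch 1 lay above batch 2 in both, and within each batch both Klf4 libraries were below both controls. Its log2 fold change was -0.10 (SE 0.03, adjusted p = 0.0136 by edgeR), and it was -0.16 in batch 1 and -0.04 in batch 2. This call was lost when only highly expressed genes (mean log2 CPM of 6 or more) set the scaling, at -0.07, when the batch term was dropped, and in batch 2 alone (adjusted p = 0.523). Cacna1d, the other L-type pore known for β cells, had a log2 fold change of -0.07 and Cacna1s, the skeletal muscle pore, one of 0.02; neither passed. Cacna1s was nonetheless counted at 29.7 to 35.9 CPM in every library. It shares 1309 of its 6550 exonic bases with Gm37759 on the opposite strand, so its counts are uncertain to that extent.

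Pores of the P/Q and R types, which are known for transmitter release at synapses, were higher. Cacna1a, the P/Q-type pore, had 27.5, 31.4, 24.4 and 26.1 CPM in control and 41.3, 39.3, 34.9 and 39.6 CPM in Klf4 libraries. Every Klf4 library was above every control, with a log2 fold change of 0.50 (SE 0.05, adjusted p = 4.71e-08, edgeR). Cacna1e, the R-type pore, was far lower, at 1.68, 2.44, 2.47 and 2.15 CPM against 2.71, 2.87, 2.81 and 2.98 CPM. Its change of 0.38 (SE 0.14, adjusted p = 0.0358, edgeR) was lost in 10 of 19 alternative settings, although the groups did not overlap. Leaving out control replicate 1 or 4, or any 1 of the Klf4 libraries, was enough to lose it, and without control replicate 1 it was 0.25. Cacna1b, the N-type pore, changed by 0.07 and did not pass.

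All 3 T-type pores, which open near the resting potential, rose. Cacna1i had 5.10, 3.20, 4.30 and 3.19 CPM in control and 6.66, 7.20, 7.26 and 7.55 CPM in Klf4 libraries, with no overlap and a log2 fold change of 0.86 (SE 0.12, adjusted p = 4.55e-06, edgeR). Cacna1h had 87.9, 93.9, 66.1 and 65.8 CPM against 107, 111, 80.2 and 89.2 CPM. Cacna1g had 52.0, 48.7, 59.8 and 59.7 CPM against 58.8, 56.7, 74.7 and 79.7 CPM. In both of these genes the groups overlapped across batches but not within one, and the batches moved them in opposite directions: from batch 1 to batch 2, Cacna1h changed by -0.41 and Cacna1g by 0.33 on the log2 scale. Their changes with the plasmid were 0.31 (SE 0.04, adjusted p = 4.54e-07) and 0.29 (SE 0.04, adjusted p = 4.68e-06) in edgeR, and both were lost when the batch term was dropped, with adjusted p of 0.122 and 0.078. Once GC content and exon length were corrected for, both were at 0.19 and still called, and in batch 1 alone Cacna1g was at 0.19. The T-type share of the summed level per kb of calcium pore genes was 40.8% ± 0.842 in control and 45.6% ± 0.786 in Klf4 libraries. The L-type share was 45.4% ± 0.176 and 39.0% ± 1.40 (SD, n = 4), with no overlap between groups for either class. The size of each share rests on the exon lengths used. The L-type share also includes Cacna1s, whose counts are uncertain through the overlap given above.

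The α2δ subunits, which raise the number of channels at the membrane, divided between a high member that did not pass and low members that rose. Cacna2d1 had 169, 184, 177 and 179 CPM in control and 165, 171, 176 and 161 CPM in Klf4 libraries, which overlapped, with a log2 fold change of -0.08 (SE 0.03, adjusted p = 0.0743, edgeR). Cacna2d2 had 4.55, 4.03, 4.38 and 4.02 CPM against 9.21, 9.37, 9.22 and 9.92 CPM, a 2.22-fold difference with a log2 fold change of 1.15 (SE 0.08, adjusted p = 9.88e-11). No control library came near its Klf4 libraries. Cacna2d4 had 3.76, 3.80, 3.45 and 3.5 CPM against 5.92, 5.92, 5.50 and 6.18 CPM, a log2 fold change of 0.70 (SE 0.09, adjusted p = 2.29e-06). Cacna2d3 was the lowest, at 0.212, 0.349, 0.487 and 0.559 CPM against 1.01, 1.21, 1.71 and 1.08 CPM, with a log2 fold change of 1.65 (SE 0.26, adjusted p = 1.99e-05). All 3 kept their calls in every alternative run. Cacna2d1 remained the main α2δ transcript, at 93.7% ± 0.349 of the class per kb in control and 87.4% ± 0.632 in Klf4 libraries, while Cacna2d2 went from 3.51% ± 0.322 to 7.67% ± 0.472 (SD, n = 4).

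**Figure D3:**
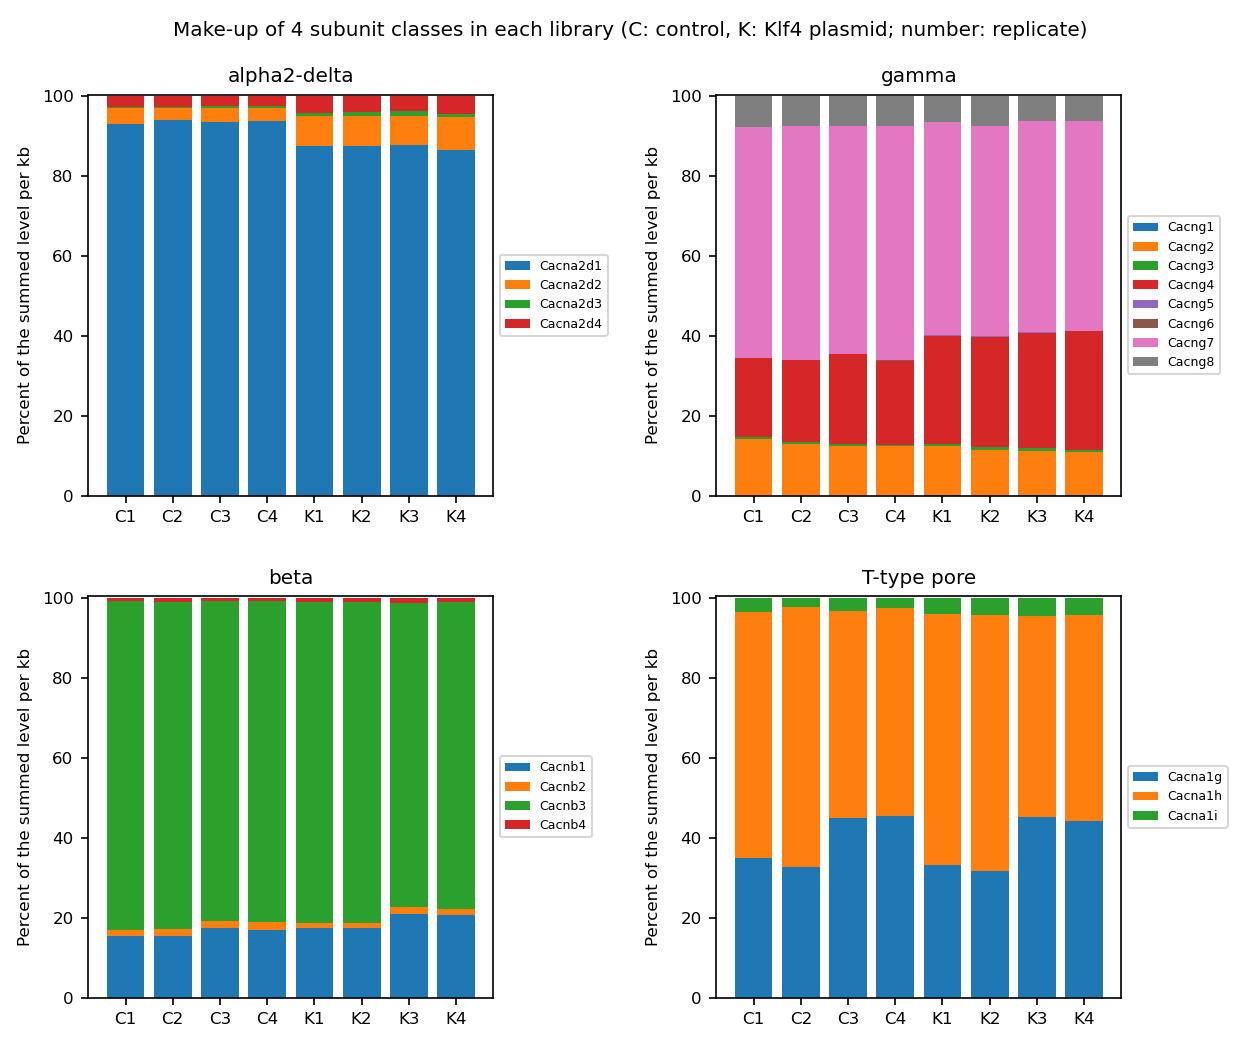
Share of each gene in the summed level per kb of its class (percent, y axis) in control libraries C1 to C4 and Klf4 libraries K1 to K4. Cacna2d2, Cacng4, Cacnb4 and Cacna1i take a larger share in every Klf4 library than in any control library.

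Of the calcium channel β subunits, which bind the pore from the cytoplasm and release it to the membrane, 3 of 4 rose. Cacnb1 had 77.9, 77.4, 91.0 and 87.3 CPM in control and 100, 99.0, 120 and 128 CPM in Klf4 libraries, with no overlap and a log2 fold change of 0.42 (SE 0.03, adjusted p = 7.69e-10, edgeR). Cacnb4 had 8.03, 9.20, 7.59 and 8.25 CPM against 12.2, 11.0, 12.3 and 13.0 CPM, a log2 fold change of 0.55 (SE 0.08, adjusted p = 2.97e-06). Its exons share 1433 bases with A430018G15Rik on the opposite strand, and the strand setting of the counting was not given, so its counts are uncertain. Cacnb3, the highest member, had 369, 366, 375 and 364 CPM against 410, 406, 385 and 424 CPM. The groups did not overlap, but the log2 fold change was only 0.14 (SE 0.03, adjusted p = 0.00047), and once GC content and exon length were corrected for it was 0.02 with an adjusted p of 0.596. Cacnb2 changed by -0.01 and did not pass.

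The γ family moved in both directions. Cacng4, one of the members that bind AMPA receptors, had 44.9, 46.7, 58.9 and 55.0 CPM in control and 63.6, 65.9, 74.4 and 78.0 CPM in Klf4 libraries, with a log2 fold change of 0.46 (SE 0.04, adjusted p = 6.78e-10, edgeR) and no overlap. Cacng3, of the same group, had 0.998, 0.698, 0.852 and 0.704 CPM against 1.28, 1.41, 1.24 and 1.08 CPM, a change of 0.62 (SE 0.20, adjusted p = 0.0198) that was lost in 6 of 19 alternatives, including without control replicate 2 or 4 or Klf4 replicate 2 or 3. Cacng5 had the largest fitted change of the tested γ genes, 0.96, with an adjusted p of 0.0631 (edgeR), and did not pass. Its groups overlapped across batches but not within one. The decreases were smaller than either increase. Cacng2, known as stargazin, had 49.6, 46.0, 50.3 and 50.9 CPM against 44.6, 42.6, 44.3 and 44.3 CPM, with a log2 fold change of -0.16 (SE 0.04, adjusted p = 0.00175). Every Klf4 library was below every control, and the call was lost in batch 1 alone (adjusted p = 0.0651). Cacng7, the highest γ gene, had 89.6, 91.3, 102 and 106 CPM against 85.4, 86.3, 93.1 and 94.1 CPM, a change of -0.11 (SE 0.03, adjusted p = 0.0059), with overlap across batches only. Cacng8 had 11.3, 11.2, 12.8 and 12.7 CPM against 9.89, 11.4, 10.2 and 10.6 CPM, which overlapped, a change of -0.19 (SE 0.07, adjusted p = 0.0342) that was lost in 9 of 19 alternatives, the replicate block among them (adjusted p = 0.0515), and without control replicate 3 or 4 or Klf4 replicate 1, 3 or 4. In batch 1 alone Cacng8 was at -0.09. With scaling factors from genes of high level, Cacng7 and Cacng8 were at -0.08 and -0.15 and did not pass, and with GC content and exon length corrected for they were at -0.20 and -0.33. The Cacng7 call was also lost without the batch term (adjusted p = 0.203) and in batch 1 alone (adjusted p = 0.186). Cacng4 took 20.9% ± 1.17 of the class per kb in control and 28.3% ± 1.23 in Klf4 libraries, and Cacng7 58.0% ± 0.753 and 52.8% ± 0.310 (SD, n = 4).

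Among sodium channel pores, the leading gene did not pass and a lower one rose. Scn11a, a pore known from sensory neurons, had 1.04, 1.54, 1.26 and 1.16 CPM in control and 2.26, 2.41, 2.99 and 3.01 CPM in Klf4 libraries, without overlap, and a log2 fold change of 1.09 (SE 0.16, adjusted p = 9.94e-06, edgeR). Scn8a, the highest sodium pore, had 22.3, 27.8, 21.5 and 24.3 CPM against 20.9, 22.8, 24.1 and 21.6 CPM, which overlapped, and a change of -0.10 that did not pass. Scn3a and Scn9a, pores reported in islet cells, changed by -0.06 and 0.09, and Scn1a, Scn2a and Scn4a by -0.53, -0.19 and 0.04; none of these passed. In the class total per kb, Scn11a went from 7.88% ± 0.933 to 16.0% ± 2.18 (SD, n = 4). Scn3b, a sodium channel β subunit, had 13.6 to 15.4 CPM in control and 13.2 to 17.3 CPM in Klf4 libraries, and its change of 0.03 did not pass.

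The 7 untested members were at the limit of detection. Cacng1, a γ subunit of skeletal muscle, had 0 counts in all control libraries and 4, 2, 7 and 7 in Klf4 libraries. That is 6.37-fold higher against a floor of 3 counts over the control group. Against the same floor Scn4b was 3.82-fold higher, with 0 counts against 4, 4, 2 and 2. Scn10a was 1.59-fold higher, with 0 against 1, 0, 1 and 3. Cacng6 had 11 counts in control, all of them in replicate 4, and 12 in Klf4 libraries, a ratio of 1.04 (0.421 to 2.61). Ratios for Scn7a and Cacna1f were 1.49 (0.599 to 3.89) and 0.673 (0.411 to 1.09), and Scn2b had 0 counts in all 8 libraries. The intervals cover counting error only. The folds over the floor take the Klf4 counts as exact, so they are not lower bounds, and Scn10a shows no sure increase. Cacng1 rose from 0 beside the 3 striated muscle markers given above, whose part in it was not tested.

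The 2 batches were compared for every member. All 20 called members, the member that had to differ included, had the same sign in both. They were called in a fit over both batches, which favours such agreement in advance, so it is no separate support. All 31 called accessory genes agreed in sign too. The interaction of batch and plasmid was called for 0 of the 33 tested members by edgeR's quasi-likelihood test (lowest adjusted p 0.348, 1 at an unadjusted p under 0.05). DESeq2 called 0 (lowest adjusted p 0.497, 1 unadjusted), and edgeR called 0.766% of all genes. The gene with the unadjusted p under 0.05 was Cacna1g, at 0.19 in batch 1 and 0.38 in batch 2. Among the called members named here, the widest gaps were in low genes: Cacna2d3 changed by 1.96 and 1.42, and Scn11a by 0.84 and 1.32. Batch itself moved 16 of the 33 members, 10 higher and 6 lower in batch 2, beside 25.1% of all tested genes.

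**Figure D4:**
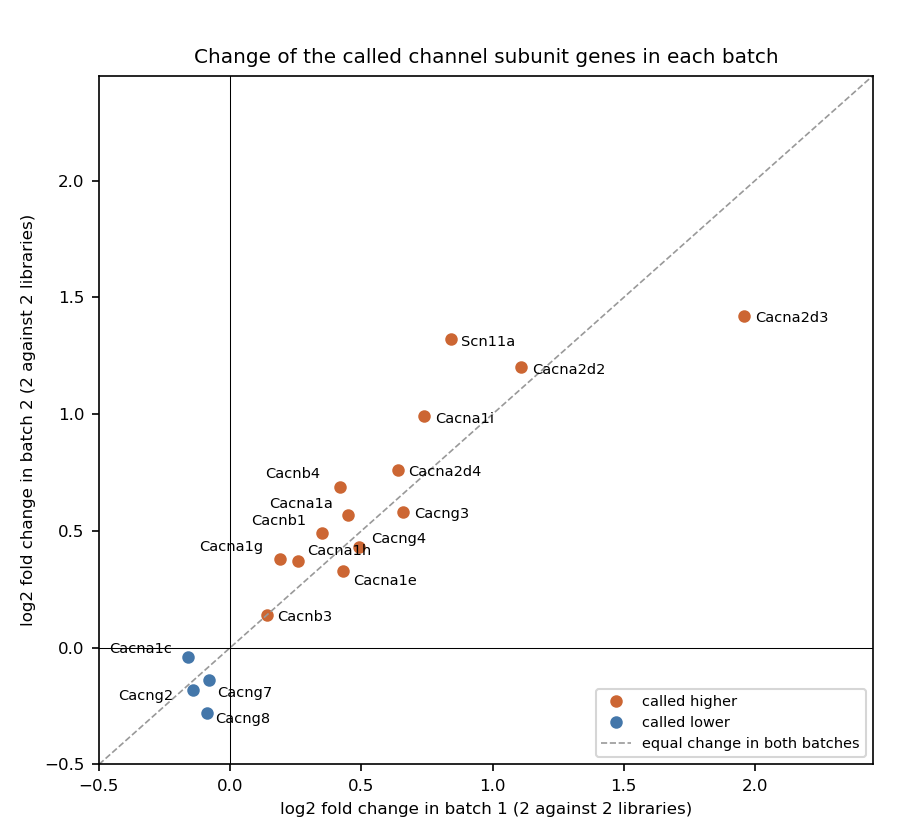
Log2 fold change of 18 called members in batch 1 (x axis) and batch 2 (y axis), each from 2 against 2 libraries. All points lie in the upper right or lower left of the plot, which the choice of genes called over both batches favours. Cacna2d3 and Scn11a lie farthest from the line of equal change.

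Genes that act with these channels were read from 3 lists, of which 52 symbols matched and 48 genes were tested: 19 were higher and 12 lower (64.6%), beside the 36.6% of all tested genes given above. Among channel regulators 4 of 14 were higher and 5 lower. Fgf11, an intracellular FGF-like partner of sodium channels, had 0.382, 0.493, 0.730 and 0.953 CPM in control and 5.92, 5.48, 7.85 and 9.42 CPM in Klf4 libraries (log2 fold change 3.49, SE 0.14, adjusted p = 3.35e-15, edgeR). Its relative Fgf13 rose by 1.18 (SE 0.17) and Rrad, a small GTPase that binds β subunits and restrains calcium channels, by 1.53 (SE 0.13). The groups did not overlap for any of these 3 genes. Rrad shares 141 of its 1577 exonic bases with Gm33023 on the opposite strand, so its counts are uncertain to that extent. Gem, a relative of Rrad chosen after its values were seen, stood higher in level and was lower in Klf4 libraries without overlap, at 26.5 ± 1.58 CPM in control and 20.5 ± 2.34 CPM (SD, n = 4; -0.37, adjusted p = 2.32e-05, edgeR).

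Calcium stores and transport gave 11 higher and 3 lower of 22. Ryr1, the calcium release channel of skeletal muscle, had 0.637, 0.637, 0.568 and 0.394 CPM in control and 8.59, 8.0, 10.3 and 11.3 CPM in Klf4 libraries (4.08, SE 0.14, adjusted p = 2.37e-16, edgeR). Itpr3, an inositol trisphosphate receptor of the endoplasmic reticulum, had 21.7, 23.2, 18.7 and 18.8 CPM against 122, 121, 149 and 153 CPM (2.72, SE 0.07). Its relative Itpr2 rose by 1.31 (SE 0.08). Klf4 libraries were above all controls in these 3 genes. Itpr1, the remaining receptor of this kind and chosen after its values were seen, fell without overlap, from 55.1 ± 2.3 to 45.2 ± 2.08 CPM (SD, n = 4; -0.29, adjusted p = 5.86e-07, edgeR). Ryr1, Itpr3 and Itpr1 share exonic bases with opposite-strand genes.

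Of the cation leak and calcium-activated cation channels, 4 of 12 were higher and 4 lower. Trpm4, a calcium-activated cation channel, had 14.8, 16.0, 12.7 and 13.0 CPM in control and 23.6, 23.9, 24.8 and 25.2 CPM in Klf4 libraries (0.79, SE 0.06, adjusted p = 4.95e-10, edgeR). The sodium leak channel Nalcn and its partner Unc80 were lower without overlap, by -0.30 (SE 0.05) and -0.38 (SE 0.05). Other listed partners of Nalcn, chosen after their values were seen, did not all fall. Unc79 was lower at -0.15, Fam155a did not pass at 0, and Tmem28 was higher at 0.13 (adjusted p = 0.00941, edgeR).

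**Figure D5:**
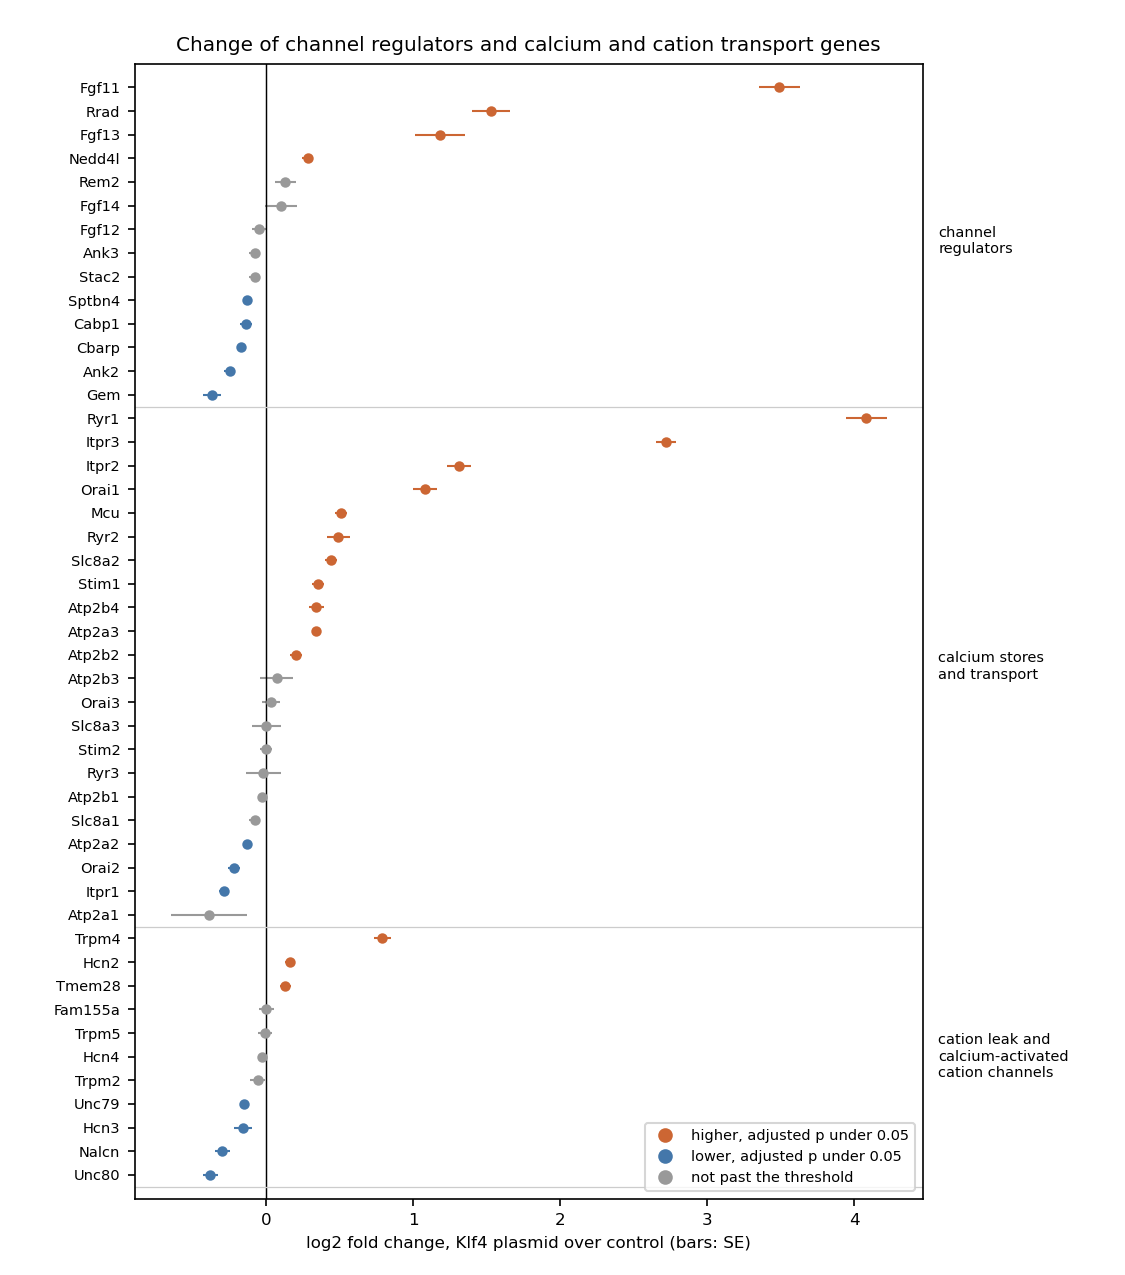
Log2 fold change (Klf4 plasmid over control) of 47 tested genes that act with the channels, in 3 lists, with bars for the standard error. Ryr1 (4.08), Fgf11 (3.49) and Itpr3 (2.72) stand far to the right, while the lower genes lie close to 0.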

How the data were processed

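RNA was measured in 8 MIN6 libraries made with a Tecan mRNA-seq kit (Universal Plus), per the labels' protocols. The authors deposited raw whole-number counts per gene in 1 table, unnormalised. The submitters' processing notes name FastQC, STAR, featureCounts, edgeR and mm10; strand setting and annotation were not given in the sources used here. All 55536 identifiers matched GENCODE M21 (GRCm38), the source of lengths and overlaps, and 11 members share exonic bases with another gene.

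From the counts, filterByExpr (minimum count 10) kept 18266 genes and removed 37270. Counts were scaled with TMM and fitted in edgeR 4.0.16 (limma 3.58.1, R 4.3.3) with batch and plasmid terms, the design the series names. The quasi-likelihood test was adjusted by Benjamini-Hochberg over all tested genes, with calls at an adjusted p under 0.05 and no minimum fold. The procedure was tested on simulated counts. DESeq2 1.42.0 was an alternative, and figures used matplotlib 3.10.9 under Python 3.11.15.

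Members and lists were chosen with earlier results of these data known. Named in full were called members, the highest member of each role per kb in control, and the 3 called genes of largest change in each accessory list. Nalcn is named besides because it ties at 2 decimals with the last of these, a choice made after values had been seen. Results of 3 single genes are not reported here, and counts over whole lists include them. Symbols Nalf1 and Nalf2 had no match, but the older symbols of these genes, Fam155a and Tmem28, were also listed, matched and were tested. Deviations of same-numbered libraries correlated at 0.64, 0.48, 0.59 and 0.55 over 10485 genes. Differently numbered libraries within a batch correlated at 0.49 to 0.59, so the numbers pair libraries by the batch the labels give, and no pairing beyond batch was seen. Alternatives were other scalings, tests, filters, thresholds and batch terms, single batches, and each library left out.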

Additional observations from a re-analysis of the deposited data

Results flagged for a closer look

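In 60 checks of a group of 4 libraries, 2 libraries stood apart from the others; chance gives about 1 in 20, or 3. Cacng2 was at 42.6 CPM in Klf4 replicate 2, and the other Klf4 libraries were at 44.3 to 44.6 CPM. Nalcn was at 26.6 CPM in control replicate 3, against 27.6 to 27.8 CPM in the others.

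The change of Itpr3 differed between batches, at 2.43 in batch 1 and 3.02 in batch 2, with an interaction of 0.57 on the log2 scale (edgeR's quasi-likelihood interaction test, adjusted p = 1.34e-05). Klf4 libraries were above controls in both batches.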

How the results depend on the processing

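The 16 members called higher became 13 to 17 under the alternatives, 14 to 16 with 1 library left out. The 4 called lower became 1 without the batch term, 1 with scaling from genes of high level, 1 in batch 1 alone and 2 at an adjusted p under 0.01; with 1 library left out they were 3 to 5. The 12 accessory genes called lower became 7 without the batch term. With the replicate block in place of batch, 19 members were called, 16 higher and 3 lower, and Cacng8 was the member lost. Scn8a, not called, reversed to 0.01 in batch 2 alone. Scaling from genes of high level moved the share of higher calls over all genes from 57.7% to 72.8% and the median log2 fold change by 0.0352. Over named genes, 511 alternative values kept direction and side of the threshold, 35 lost the call and 4 gained it, all 4 in Cacna2d1 (lowest value -0.12). Genes under about 1 CPM (Cacna2d3, Cacng3) are limited by depth. Where no cause is given, the cause was not tested.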
